A study of Mus musculus with 36 samples.

Results

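Macrophage identity and polarization in mouse mammary tumors were followed through 10 genes, chosen by name: Adgre1, Csf1r, Cd68, Mrc1, Lyve1, F13a1, Arg1, Nos2, Cd163 and Stab1. They are 10 of 12394 genes with a named probe set on the array, and they hold 13 of the 20393 probe sets that carry 1 gene symbol. Csf1r has 3 probe sets, Lyve1 has 2 and each other gene has 1, and the probe set with the highest mean signal stood for a gene. Whole-tumor RNA from 36 tumors was measured, each tumor on its own array, in 8 groups set by cell line, host and knockdown label. Each of the 4 Control groups had 3 tumors and each of the 4 BPTF knockdown (BPTF KD) groups had 6.

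67NR and 66cl4 are mammary carcinoma lines of BALB/c origin. Cells of either line were given a retrovirus that carried a control short hairpin RNA (Control) or 1 against Bptf (BPTF KD), which encodes a subunit of the chromatin remodeling complex NURF. They were then placed in a mammary fat pad of female hosts of 6 to 8 weeks. Hosts were immunocompetent BALB/c or NSG, a NOD/SCID strain with a further gene knocked out. NSG mice lack T, B and NK cells but still hold macrophages. Strain background differs with host, so it cannot be told apart from the lack of these cells. 67NR tumors started from 100000 cells and were taken at day 21, whereas 66cl4 tumors started from 10000 cells and were taken at day 28, so the line cannot be told apart from inoculum and day. BPTF KD was delivered with 2 hairpins, and which hairpin a tumor carried was not used here. The hairpins were placed in the carcinoma cells, so the array reads Bptf and macrophage RNA of host cells together with RNA of the carcinoma cells. Labels name the tumors of a group as biological replicates, and p-values measure the spread between these tumors.

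Macrophages arise from embryonic precursors and from blood monocytes, and they live on signals through CSF1R. The transcription factor PU.1 opens the enhancers of the lineage. Interferon gamma and bacterial products push macrophages to a state marked by the nitric oxide synthase gene Nos2 and by CXCL9, whereas IL-4 and IL-13 act through STAT6 to raise Arg1, Mrc1 and Retnla. LYVE1, MRC1, F13A1, CD163 and STAB1 mark perivascular and tissue-resident macrophages in many organs, and LYVE1 and STAB1 are also found on lymphatic or sinusoidal endothelium. In mammary tumors, macrophages of the ARG1 and MRC1 kind are known for matrix remodeling and immune suppression.

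Upstream sequences from RefSeq were used for 5 of the 10 genes (Cd163, Cd68, F13a1, Mrc1 and Stab1). Windows of the other 5 are not counted here. Csf1r was left out by its chromosome before the counts were made. The counts below thus cover only the 5 used and are not a share of the 10 genes. The 250 bases before the start site are shown for Mrc1, F13a1 and Cd163, since the levels of these genes deviated together from tumor to tumor, as given further on. Capitals mark the letters GAGGAA or the same letters read on the other strand, TTCCTC, the core that PU.1 and related ETS factors bind. Mrc1 lies at chr2:14229164-14229413 on the plus strand, F13a1 at chr13:37050245-37050494 on the minus strand and Cd163 at chr6:124304401-124304650 on the plus strand, all in GRCm38.p6 and written 5′ to 3′ on the strand of the gene.
Mrc1: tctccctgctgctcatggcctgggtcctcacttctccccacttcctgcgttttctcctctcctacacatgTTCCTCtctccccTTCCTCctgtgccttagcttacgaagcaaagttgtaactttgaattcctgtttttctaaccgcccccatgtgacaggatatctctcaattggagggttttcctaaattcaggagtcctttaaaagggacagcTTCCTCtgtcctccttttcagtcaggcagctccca
F13a1: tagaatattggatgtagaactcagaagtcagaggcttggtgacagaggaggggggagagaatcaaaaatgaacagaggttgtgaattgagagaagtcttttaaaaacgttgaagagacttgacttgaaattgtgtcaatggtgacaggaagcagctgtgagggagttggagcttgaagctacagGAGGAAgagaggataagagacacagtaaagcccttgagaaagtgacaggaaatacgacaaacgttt
Cd163: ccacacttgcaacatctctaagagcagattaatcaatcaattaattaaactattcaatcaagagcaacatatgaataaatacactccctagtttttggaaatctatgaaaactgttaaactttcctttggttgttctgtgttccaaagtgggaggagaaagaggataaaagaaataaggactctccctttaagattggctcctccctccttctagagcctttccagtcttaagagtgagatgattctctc
Mrc1 holds 3 such matches, beginning 180, 167 and 35 bases before the start site, F13a1 holds 1, beginning 66 bases before it, and Cd163 holds none. Searched on both strands, GAGGAA was present in 4 of the 5 windows (Cd68 and Stab1 hold 1 each) against 23.3% of 32851 RefSeq windows of the same length. The STAT6-type element was in 0 of 5 windows against 5.85% of all. These are letters in a window and not measured binding.

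The deposited values are log2 signals on 1 scale for all arrays, with array medians of 7.03 to 7.21. Levels are compared between tumors and not between genes, because probe sets differ in brightness. Bptf itself, the check of the knockdown label, read 9.73, 9.76 and 10.31 in 67NR BALB/c Control tumors and from 8.34 through a median of 9.97 to 10.68 in the 6 labelled BPTF KD. Only 1 of those 6 tumors lay below every Control, so the array did not show the label in this group and it is called labelled BPTF KD in what follows. In 66cl4 BALB/c tumors Bptf read 9.50, 10.61 and 9.89 in Control and 8.68 to 9.12 in BPTF KD, with all 6 below every Control. In NSG hosts 3 of 6 67NR and 5 of 6 66cl4 BPTF KD tumors lay below every Control. The difference in signal between 3′ and 5′ actin probes, a measure of RNA integrity, was 0.73 to 2.11, and its extremes both fell among 67NR BALB/c tumors labelled BPTF KD. Replicate 1 of that group had the value of 2.11. Replicate 3 had a mean skeletal muscle marker level of 11.76 against 5.69 to 7.58 in the other 5.

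**Figure D1:**
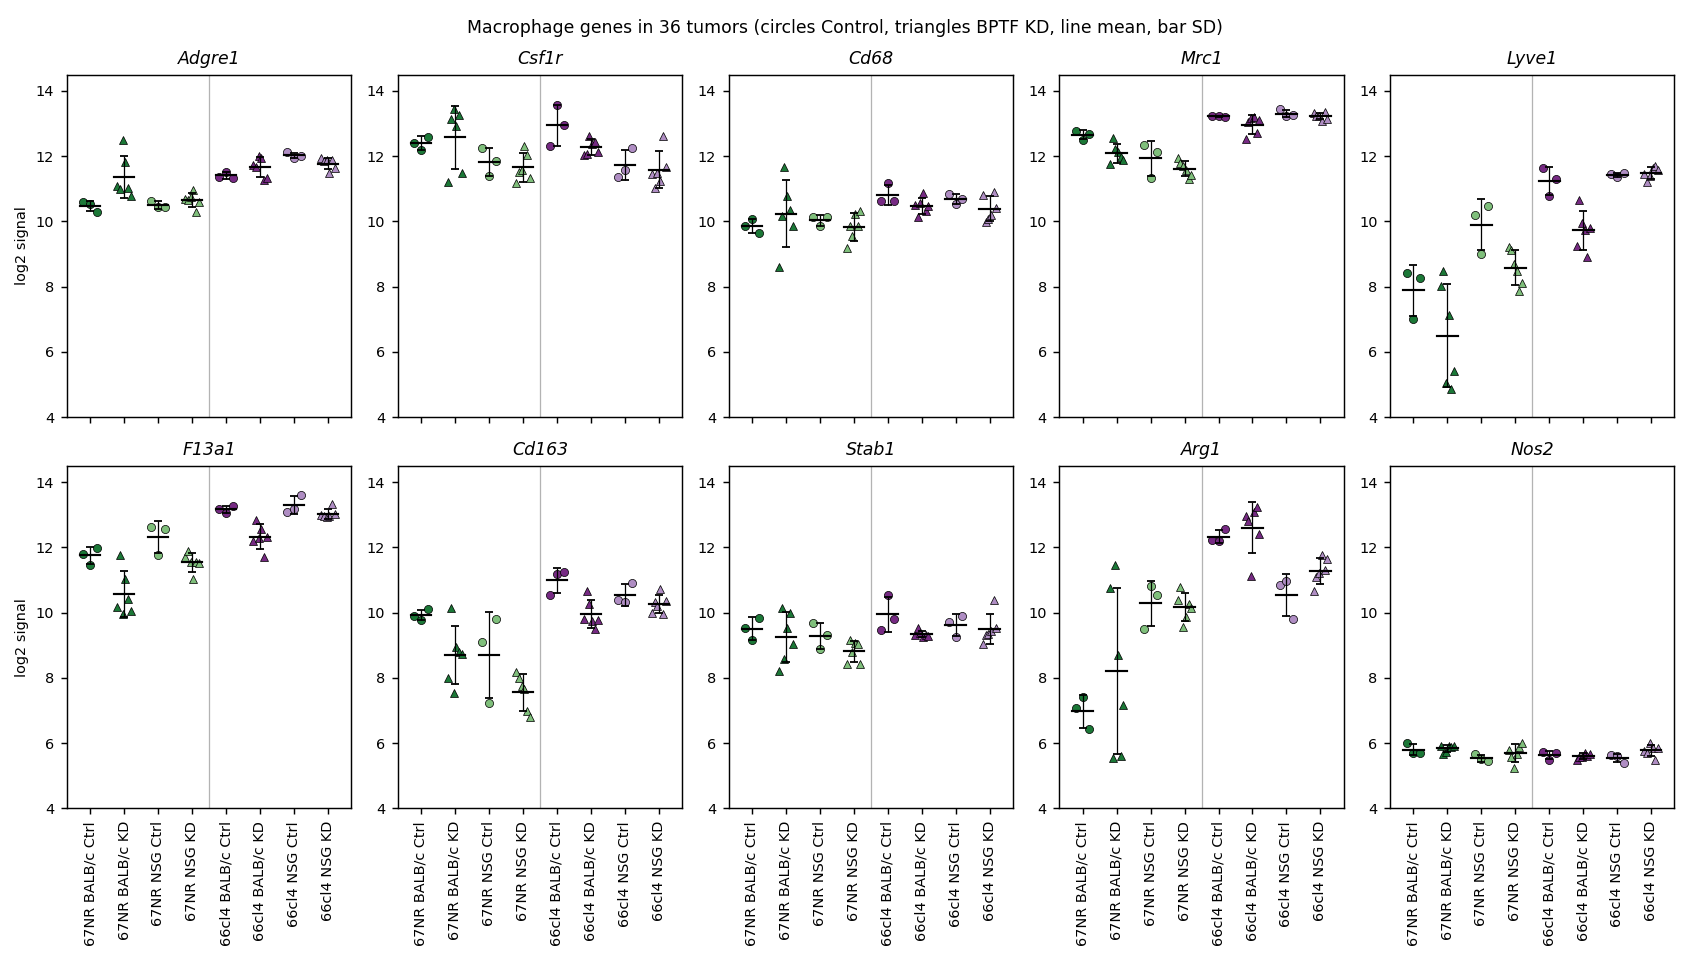
Log2 signal of the 10 genes in each of 36 tumors (y axis) by group (x axis, Ctrl is Control and KD is the BPTF KD label). Circles are Control and triangles BPTF KD tumors, lines are group means and bars 1 SD. Arg1 and Lyve1 spanned 7.69 and 6.82 log2 units, whereas Nos2 stayed between 5.24 and 6.01.

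The general macrophage genes were bright in all 36 tumors. Adgre1, a surface receptor of the adhesion GPCR family and the classic marker of mouse macrophages, ranged from 10.29 to 12.48, Csf1r, the receptor for CSF1, from 11.02 to 13.57, and Cd68, a lysosomal glycoprotein, from 8.59 to 11.68. All of these levels lay above the 3.02 to 4.76 read for 4 Y-linked genes, which are not expected in tumors of female mice. In bulk tumor RNA, fewer macrophages and less RNA per macrophage cannot be told apart.

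The scavenger and resident-type genes differed more between groups. Mrc1, the mannose receptor CD206, stayed within 11.29 to 13.44 and F13a1, coagulation factor XIII subunit A, within 9.95 to 13.60. Cd163, the hemoglobin-haptoglobin receptor, ranged from 6.79 to 11.24 and Stab1, a scavenger receptor, from 8.21 to 10.55. Lyve1, a hyaluronan receptor, ran from 4.88 to 11.70. Its group means fell in the order 66cl4 NSG BPTF KD (11.49), 66cl4 NSG Control (11.43), 66cl4 BALB/c Control (11.24), 67NR NSG Control (9.90), 66cl4 BALB/c BPTF KD (9.72), 67NR NSG BPTF KD (8.58), 67NR BALB/c Control (7.89) and 67NR BALB/c labelled BPTF KD (6.50). Among neighbours in that order, the ranges were apart only between 66cl4 BALB/c Control and 67NR NSG Control.

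The polarization enzymes behaved unlike each other. Arg1, which splits arginine to ornithine and urea, had the widest range of the 10 genes, from 5.56 to 13.25. Its group means ran 12.60 in 66cl4 BALB/c BPTF KD, 12.32 in 66cl4 BALB/c Control, 11.28 in 66cl4 NSG BPTF KD, 10.54 in 66cl4 NSG Control, 10.28 in 67NR NSG Control, 10.17 in 67NR NSG BPTF KD, 8.21 in 67NR BALB/c labelled BPTF KD and 6.98 in 67NR BALB/c Control. Neighbours overlapped except for 66cl4 BALB/c Control, whose lowest tumor lay above the highest of 66cl4 NSG BPTF KD. Nos2 lay between 5.24 and 6.01 in all tumors, the 8 group means differing by less than the range within 67NR NSG BPTF KD tumors, and it passed the test in none of the 12 comparisons between groups.

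The first question was how the macrophage genes differed between the 2 cell lines. In BALB/c Control tumors, 7 of the 10 genes were higher in 66cl4 than in 67NR (limma, Benjamini-Hochberg adjusted p under 0.05 over 12394 genes) and none was lower. The background was wide: 26.1% of all genes passed, 12.6% in the higher direction. Arg1 read 12.22, 12.19 and 12.55 in 66cl4 and 7.08, 7.42 and 6.43 in 67NR. The groups were far apart, a difference of 5.34 ± 0.24 (SE) on the log2 scale or 40.6-fold (adjusted p = 4.57e-06). Lyve1 read 11.65, 10.78 and 11.29 against 8.41, 7.0 and 8.27, again with no overlap, a difference of 3.35 ± 0.37 or 10.2-fold (adjusted p = 4.14e-04). F13a1 read 13.19, 13.06 and 13.27 against 11.81, 11.47 and 11.98, higher by 1.42 ± 0.15. Cd163 (1.06), Cd68 (0.95), Adgre1 (0.94) and Mrc1 (0.57) were also higher on the log2 scale. Csf1r (0.55, 95% interval -0.11 to 1.21) and Stab1 (0.44, -0.20 to 1.08) did not pass, although Csf1r passed without 66cl4 BALB/c Control replicate 1 (0.87, adjusted p = 0.016). The median difference was 0.95 over the 10 genes against -0.00 over all genes.

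Skeletal muscle markers moved with this comparison, 8 of 9 being higher in 66cl4 BALB/c Control tumors, where their mean level was 8.81 to 11.06 against 5.75 to 5.90 in 67NR. In NSG hosts the muscle marker level was 5.25 to 6.78 in 66cl4 Control and 5.86 to 6.53 in 67NR Control tumors. Their part in the result was not tested.

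In BALB/c tumors labelled BPTF KD, 5 of 10 genes were higher in 66cl4 (14.0% of all genes passed, 8.17% higher). Arg1 ran from 11.11 through 12.88 to 13.25 in 66cl4 and from 5.56 through 7.93 to 11.46 in 67NR, and 5 of 6 tumors lay above every 67NR tumor (4.39 ± 0.97, adjusted p = 0.0105). Lyve1 was 8.92 to 10.66 against 4.88 to 8.49, all 6 above, a difference of 3.22 ± 0.62 (9.34-fold). Of the 67NR values, 3 (4.88, 5.04 and 5.43) lay near the highest level of the Y-linked genes, 4.76, so the fold may be a lower bound. F13a1 (1.75), Cd163 (1.27) and Mrc1 (0.87) were higher too, and the Cd163 call held in 5 of 12 refits that each left out 1 tumor, namely those without 67NR replicate 1, 2, 3 or 6 or 66cl4 replicate 5 (adjusted p 0.00447 to 0.0814 over the 12). Nos2 (-0.24) did not pass, and it passed without 67NR replicate 3 (-0.26, adjusted p = 0.048), with the actin difference as a covariate for RNA integrity (-0.25, adjusted p = 0.0368) and by the methods' t-test. Adgre1 (0.30), Cd68 (0.24) and Csf1r (-0.30) did not pass, and their 67NR values were spread over 10.77 to 12.48, 8.59 to 11.68 and 11.22 to 13.45. In this 67NR group, Cd68 and Csf1r were lowest in replicate 1, the tumor with the highest actin 3′ to 5′ difference.

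In NSG Control tumors, 6 of 10 genes were higher in 66cl4 (36.2% of all genes, 18.3% higher). Adgre1 read 12.12, 11.95 and 11.99 against 10.64, 10.45 and 10.43, a gap of 1.51 ± 0.11 (adjusted p = 1.33e-04). Cd163 read 10.38, 10.32 and 10.92 against 9.09, 7.23 and 9.79, which is apart but with a wide 67NR group (1.84 ± 0.58, adjusted p = 0.0423). The Cd163 call was kept only without 67NR replicate 2 or 3, and F13a1 missed the threshold without 66cl4 replicate 3 (0.82, adjusted p = 0.0548). Lyve1 (1.54), Mrc1 (1.37), F13a1 (0.97) and Cd68 (0.65) were higher. Arg1 read 10.85, 10.97 and 9.80 in 66cl4 and 9.49, 10.82 and 10.54 in 67NR, so the groups overlapped (0.26, 95% interval -0.70 to 1.22, adjusted p = 0.681). The actin 3′ to 5′ difference was 1.23 to 1.38 in these 66cl4 and 0.89 to 1.03 in these 67NR tumors, so RNA integrity and line cannot be told apart here, and with it as a covariate 25 genes of the array passed and none of the 10. In that fit the differences were 1.42 for Adgre1 (adjusted p = 0.148), 1.90 for Cd163 (0.643), 1.35 for Lyve1 (0.565), 0.94 for Mrc1 (0.567), 0.72 for F13a1 (0.687) and 0.82 for Cd68 (0.35).

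In NSG BPTF KD tumors, 8 of 10 genes were higher in 66cl4 (42.5% of all genes, 22.1% higher). Lyve1 was 11.22 to 11.70 in 66cl4 and 7.87 to 9.22 in 67NR, all 6 above all 6, a difference of 2.91 ± 0.20 or 7.53-fold (adjusted p = 9.47e-08). Cd163 was 9.97 to 10.71 against 6.79 to 8.18, also with no overlap (2.70 ± 0.22, 6.50-fold). Mrc1 was higher by 1.61 ± 0.11 with 13.09 to 13.36 against 11.29 to 11.93. F13a1 (1.49), Adgre1 (1.12), Arg1 (1.10), Stab1 (0.69) and Cd68 (0.56) followed, the Cd68 call holding only in the 4 refits without 67NR replicate 4 or 6 or 66cl4 replicate 2 or 3. The actin ranges of these 2 groups overlapped (0.94 to 1.48 and 0.81 to 1.45), and with RNA integrity as a covariate 8 genes passed as well.

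Other macrophage and monocyte markers that passed between lines were mostly higher in 66cl4. Of 35 measured, 15 were higher and none lower in 66cl4 in BALB/c Control, 7 and 0 in BALB/c labelled BPTF KD, 24 and 2 in NSG Control, and 26 and 1 in NSG BPTF KD, so 20, 28, 9 and 8 did not pass. Over all genes 12.6, 8.17, 18.3 and 22.1% were higher. Their median differences were 0.47, 0.18, 0.85 and 0.80, against -0.00, -0.02, 0.02 and 0.06 over all genes. Cd14, the lipopolysaccharide co-receptor, was higher in each of the 4 comparisons (1.32, 1.34, 1.89 and 1.86), and Itgam, the integrin CD11b, was too (1.84, 1.64, 1.51 and 1.58). Folr2, which marks resident macrophages beside Lyve1, was higher by 1.21, 1.24, 1.34 and 1.87. Gpnmb, a glycoprotein of lipid-laden macrophages, went the other way in NSG hosts (-2.27 in Control and -2.49 in BPTF KD), as did the efferocytosis receptor Mertk in NSG Control (-0.55). Pan-leukocyte genes such as Itgb2, Coro1a and Cd53 were higher in 66cl4 for 5, 0, 7 and 7 of 8 members in the same order of comparisons, with median differences of 0.78, 0.04, 1.48 and 1.5.

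Genes of the CSF1 axis and of monocyte recruitment did not share 1 direction between lines. Of all genes, 26.1, 14.0, 36.2 and 42.5% passed in either direction in BALB/c Control, BALB/c labelled BPTF KD, NSG Control and NSG BPTF KD. In BALB/c Control tumors 4 of 14 were higher and 4 lower in 66cl4, among them Csf1 (1.01) and, on the lower side, the second CSF1R ligand Il34 (-1.71), the chemokine Cx3cl1 (-1.61) and Csf2 (-1.26). In BALB/c tumors labelled BPTF KD 1 was higher and 2 lower, Ccl12 at 0.86 and Cx3cl1 (-1.48) and Csf2 (-0.75). In NSG Control tumors 5 were higher and 4 lower, with the monocyte chemokine receptor Ccr2 at 2.64, the PU.1 gene Spi1 at 0.89, Il34 at -1.41 and Cx3cl1 at -2.15. In NSG BPTF KD tumors 7 were higher and 3 lower, led by Ccr2 (2.10), Ccl12 (1.80), Ccl7 (1.70) and Spi1 (0.97).

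Polarization genes passed between lines in both directions, where 26.1, 14.0, 36.2 and 42.5% of all genes passed in BALB/c Control, BALB/c labelled BPTF KD, NSG Control and NSG BPTF KD. Of 21 genes of alternative activation, 1, 0, 7 and 11 were higher and 3, 2, 2 and 1 lower in 66cl4 in this order. Retnla, an IL-4 target, was higher by 1.25, 1.93 and 2.23 in all but BALB/c labelled BPTF KD, and the beta-glucan receptor Clec7a by 2.02 and 1.89 in NSG hosts. Of 22 genes of classical activation, 5, 1, 8 and 11 were higher and 3, 2, 2 and 2 lower. The formyl peptide receptor Fpr2 was higher by 1.69, 4.32 and 4.77 in BALB/c Control, NSG Control and NSG BPTF KD, whereas the costimulatory ligand Cd80 was lower by -1.47, -1.60 and -1.27 in all but NSG BPTF KD, where it was higher (0.41). Among 13 other genes of arginine metabolism, 3, 2, 2 and 2 were higher and 3, 2, 4 and 5 lower. Asl, the argininosuccinate lyase, was higher by 1.09, 1.19, 1.67 and 1.41 in the 4, and the endothelial synthase Nos3 was lower by -2.06, -1.17, -1.21 and -0.79.

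Markers of other cell types were set beside Lyve1 and Stab1, which lymphatic and sinusoidal endothelium also express. The counts below stand against 26.1, 14.0, 36.2 and 42.5% of all genes that passed in either direction in BALB/c Control, BALB/c labelled BPTF KD, NSG Control and NSG BPTF KD. Lymphatic markers gave 4 measured genes (Prox1, Pdpn, Flt4 and Reln), of which none was higher in 66cl4 and Pdpn alone was lower in each of the 4 comparisons (-2.79, -1.57, -2.14 and -0.55). The mean level of these 4 genes was 5.81 to 6.23 in 66cl4 and 5.92 to 6.95 in 67NR tumors. Group means of Prox1 (3.13 to 3.34) and Reln (4.24 to 4.71) lay within the 3.02 to 4.76 of Y-linked genes, which limits what they can show. Those of Pdpn were far brighter (10.40 to 13.57), so the mean level of the list mostly follows Pdpn. Blood endothelial genes were lower in 66cl4 for 2, 4, 6 and 7 of 10, with only Vwf higher, in NSG Control (1.68) and NSG BPTF KD (2.03). Fibroblast genes, of which carcinoma cells of these lines may also express some, were higher for 5, 0, 0 and 0 of 11 and lower for 2, 1, 3 and 7. Neutrophil genes were higher for 1, 2, 4 and 5 of 11 and lower for 0, 2, 0 and 0, with S100a9 at 1.22, 2.06, 3.24 and 3.68. Mast cell and eosinophil genes were lower for 4, 5, 0 and 0 of 8, all of them mast cell genes. Dendritic cell genes were higher for 0, 0, 2 and 4 of 7 and lower for 0, 2, 0 and 0, and adipocyte genes passed for 1, 1, 0 and 1 of 7. Epithelial genes were higher for 2 of 9 in each comparison, the keratins Krt8 and Krt18, and in NSG BPTF KD 2 were lower. T and NK cell genes were lower for 1, 2, 0 and 0 of 8 and higher for 0, 0, 0 and 3.

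**Figure D2:**
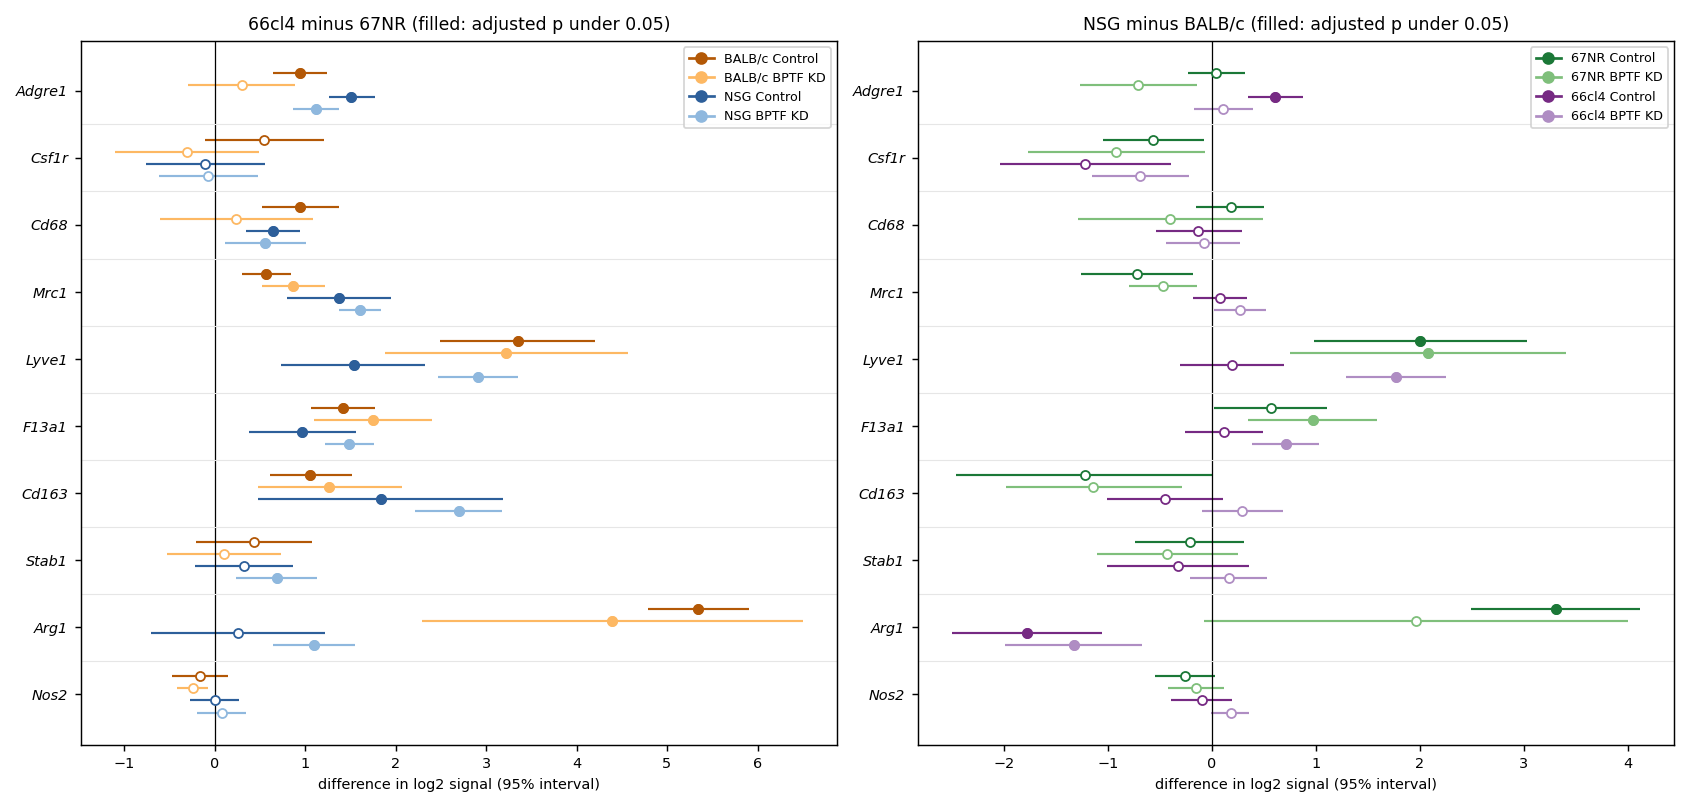
Differences in log2 signal with 95% intervals (x axis) for each of the 10 genes (y axis), at left 66cl4 minus 67NR and at right NSG minus BALB/c. Filled points passed an adjusted p of 0.05. Arg1 was 5.34 higher in 66cl4 than in 67NR in BALB/c Control tumors and its host differences lay on opposite sides of 0 in the 2 lines.

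The second comparison asked what changed in NSG hosts, which lack T, B and NK cells and also differ from BALB/c in strain background. In 67NR Control tumors, 2 of 10 genes were higher in NSG and none lower, with 7.58% of all genes passing. Arg1 read 9.49, 10.82 and 10.54 in NSG and 7.08, 7.42 and 6.43 in BALB/c, every NSG tumor above every BALB/c tumor, by 3.31 ± 0.36 or 9.89-fold (adjusted p = 0.00275). Lyve1 read 10.20, 9.01 and 10.48 against 8.41, 7.0 and 8.27, also apart (2.0 ± 0.45, adjusted p = 0.0357). The Arg1 call held in all 6 refits without 1 tumor, whereas the Lyve1 call held only without NSG replicate 2 (adjusted p 0.00961 to 0.095 over the 6). Mrc1 read 12.34, 11.33 and 12.12 against 12.77, 12.50 and 12.68, lower in every NSG tumor but short of the threshold (-0.72 ± 0.24, adjusted p = 0.1), and Nos2 was likewise apart and not called (-0.26, adjusted p = 0.221). These 4 genes did not overlap between the 2 groups, where 33.0% of all genes did not. F13a1 (0.57) passed only without NSG replicate 2 (0.85, adjusted p = 0.0223). The actin 3′ to 5′ difference was 0.89 to 1.03 in NSG and 1.21 to 1.42 in BALB/c, so it cannot be told apart from host, and with it as a covariate no gene of the array passed, Arg1 being at 3.02 and Lyve1 at 2.29 (adjusted p = 0.963 each). In that fit Mrc1 was at -0.13 and Nos2 at 0.25. With all 36 tumors in 1 fit, Arg1 (adjusted p = 0.0408) and Mrc1 (0.0448) passed and Lyve1 (0.0818) did not.

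In 66cl4 Control tumors the Arg1 difference ran the other way. Arg1 read 10.85, 10.97 and 9.80 in NSG and 12.22, 12.19 and 12.55 in BALB/c, a drop in every tumor (-1.78 ± 0.31, 3.43-fold lower, adjusted p = 0.0417). Adgre1 read 12.12, 11.95 and 11.99 against 11.37, 11.52 and 11.33, higher in every NSG tumor (0.61 ± 0.11, adjusted p = 0.0441). These were the 2 genes of 10 that passed, with 2.53% of all genes passing. Neither call was firm: Arg1 passed in 2 of 6 refits without 1 tumor, those without NSG replicate 3 or BALB/c replicate 1 (adjusted p 0.0257 to 0.113 over the 6), and Adgre1 in 1, without BALB/c replicate 1 (0.0305 to 0.137). Neither passed with all 36 tumors in 1 fit (adjusted p = 0.227 and 0.155) or with the RNA integrity covariate, where the differences were -1.90 (adjusted p = 0.0869) and 0.68 (0.0745). Csf1r was lower in every NSG tumor (11.36, 11.57 and 12.25 against 12.31, 13.57 and 12.95) without passing (-1.22 ± 0.35, adjusted p = 0.078), and it passed without BALB/c replicate 1 (-1.53, adjusted p = 0.0266). The share of all genes without overlap is not given for this comparison, and between hosts in 67NR Control tumors it was 33.0%. Skeletal muscle markers moved with host here, 7 of 9 lower in NSG (5.25 to 6.78 against 8.81 to 11.06), and their part was not tested.

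The difference between the lines in the host effect was tested in the Control tumors. For Arg1 it was -5.09 ± 0.53 (95% interval -6.24 to -3.93, adjusted p = 0.00239), the host effect being positive in 67NR and negative in 66cl4, and it held in 12 of 12 refits without 1 tumor. With the spread estimated over all 36 tumors in 1 fit it missed the threshold (adjusted p = 0.0575). Adgre1 also differed (0.57 ± 0.16, adjusted p = 0.0369), but in 3 of 12 refits only, those without 67NR BALB/c replicate 3 or 66cl4 BALB/c replicate 1 or 2, and not with all 36 tumors in 1 fit (adjusted p = 0.399). Lyve1 gave -1.81 ± 0.57 (adjusted p = 0.0562) and Mrc1 0.80 ± 0.29 (adjusted p = 0.0837), and Lyve1 passed without 67NR NSG replicate 2 (-2.25, adjusted p = 0.0297). So 2 of 10 genes passed where 13.3% of all genes did.

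In tumors with the BPTF KD label, Lyve1 and F13a1 were higher in NSG in both lines. In 66cl4, Lyve1 was 11.22 to 11.70 (median 11.52) in NSG and 8.92 to 10.66 (median 9.78) in BALB/c, all 6 above all 6 (1.77 ± 0.22, 3.41-fold, adjusted p = 1.61e-04). F13a1 was 12.93 to 13.32 against 11.71 to 12.85, again with no overlap (0.71 ± 0.15, adjusted p = 0.00758). Arg1 was lower in NSG, 10.65 to 11.77 against 11.11 to 13.25, with 2 of 6 tumors below every BALB/c tumor (-1.33 ± 0.31, adjusted p = 0.0131). These 3 of 10 genes passed where 11.1% of all genes did, and each held in all 12 refits without 1 tumor. With all 36 tumors in 1 fit, Lyve1 passed (adjusted p = 0.0159) and F13a1 (adjusted p = 0.0626) and Arg1 (adjusted p = 0.3) did not. Csf1r missed with its brightest probe set (-0.69, adjusted p = 0.0574) and passed without NSG replicate 5 (-0.89, adjusted p = 7.21e-04), while its 2 dimmer probe sets passed (-0.65, adjusted p = 0.0469, and -0.53, adjusted p = 0.0372). Nos2 also passed only without NSG replicate 5 (0.24, adjusted p = 0.0405).

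In 67NR, NSG BPTF KD tumors were set against BALB/c tumors labelled BPTF KD, in which Bptf did not show the label. Lyve1 was 7.87 to 9.22 (median 8.59) in NSG and 4.88 to 8.49 (median 6.28) in BALB/c, 3 of 6 above every BALB/c tumor (2.08 ± 0.61, adjusted p = 0.0375). F13a1 was 11.04 to 11.89 against 9.95 to 11.78 with 1 of 6 above (0.97 ± 0.29, adjusted p = 0.0368). Both passed where 15.8% of all genes did, and each kept its call in 3 of 12 refits without 1 tumor (Lyve1 without NSG replicate 5 or BALB/c replicate 1 or 2, F13a1 without NSG replicate 4 or BALB/c replicate 2 or 4, adjusted p up to 0.0818). The second Lyve1 probe set was higher by 1.21 (adjusted p = 0.082). Arg1 was 9.57 to 10.78 in NSG and 5.56 to 11.46 in BALB/c, overlapping widely (1.96, 95% interval -0.08 to 4.00), and without BALB/c replicate 3, the tumor with high muscle markers, it passed (2.61, adjusted p = 0.0481). Cd163 was lower by -1.14 ± 0.39 (adjusted p = 0.0685) and passed without BALB/c replicate 1 (-1.27, adjusted p = 0.0437) or 3 (-1.36, adjusted p = 0.0241). Csf1r (-0.92) passed without BALB/c replicate 1 (-1.19, adjusted p = 0.026), as did Mrc1 (-0.47 with all tumors and -0.54 without that tumor or without NSG replicate 1). With all 36 tumors in 1 fit 7 of the 10 genes passed here, and with the RNA integrity covariate 7 did. Of all 12394 genes, 3908 and 3136 passed in these fits, against 1957 in the fit to the compared groups alone.

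Tested as a difference between lines in the tumors labelled BPTF KD, the host effect differed for Mrc1 (0.74 ± 0.19, adjusted p = 0.0185), Cd163 (1.43 ± 0.45, adjusted p = 0.0479) and Arg1 (-3.29 ± 1.04, adjusted p = 0.0485), 3 of 10 where 9.0% of all genes passed. Of these calls, Mrc1 held in all 24 refits without 1 tumor, Cd163 in 6 (without 67NR NSG replicate 1 or 2, 67NR BALB/c replicate 1 or 3, 66cl4 NSG replicate 5 or 66cl4 BALB/c replicate 2) and Arg1 in 3 (without 67NR BALB/c replicate 1 or 3 or 66cl4 BALB/c replicate 3). Adgre1 (0.82, adjusted p = 0.0949) passed in 1, without 67NR BALB/c replicate 6 (0.94, adjusted p = 0.0496).

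Host groups also differed in RNA and in other cell types. The Gapdh 3′ to 5′ difference was 0.14 to 0.52 in BALB/c and -0.12 to 0.17 in NSG tumors. T and NK cell genes were lower in NSG for 6, 8, 5 and 7 of 8 in 67NR Control, 67NR labelled BPTF KD, 66cl4 Control and 66cl4 BPTF KD, with Cd3g at -3.50, -6.17, -2.64 and -4.79. Of 22 classical activation genes, 7, 14, 3 and 9 were lower, none was higher and 15, 8, 19 and 13 did not pass, where 7.58, 15.8, 2.53 and 11.1% of all genes passed in either direction, and the interferon gamma target Cxcl9 was lower by -4.39, -6.97, -3.69 and -5.90. Alternative activation genes were lower for 6, 7, 1 and 5 of 21, among them the chemokine Ccl24 (-3.11, -2.43, -2.48 and -1.46), and only Chil3 in 66cl4 BPTF KD was higher (1.15). Dendritic cell genes were lower for 3, 6, 0 and 2 of 7 and mast cell and eosinophil genes for 0, 5, 0 and 0 of 8, these 5 being mast cell genes. Fibroblast genes were higher for 5, 4, 0 and 0 and lower for 0, 2, 0 and 4 of 11.

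Of 35 other macrophage and monocyte genes, 11 were lower in NSG and 1 higher in 67NR Control tumors, and 14 were lower and 1 higher in 67NR tumors labelled BPTF KD. Clec10a, a galactose-type lectin, was lower by -2.04 and -2.78, whereas Gpnmb was the single gene that was higher (2.51 and 2.32). In 66cl4 tumors the same list was mixed, 1 lower and 3 higher in Control and 8 lower and 5 higher in BPTF KD, with Marco, a scavenger receptor, higher by 1.08 and 1.24 and Apoe lower by -1.83 and -1.82. Tested as a difference between lines, the host effect was more positive in 66cl4 for 11 of these 35 genes and more negative for 2 in Control tumors, and for 10 and 1 in BPTF KD tumors, with Marco at 1.16 and 1.57 and Gpnmb at -2.39 and -1.97. Of all genes, 13.3 and 9.0% passed this test in either direction in Control and BPTF KD tumors. Between hosts, 7.58, 15.8, 2.53 and 11.1% of all genes passed in either direction in 67NR Control, 67NR labelled BPTF KD, 66cl4 Control and 66cl4 BPTF KD. Pan-leukocyte genes were lower in NSG for 4, 6, 0 and 1 of 8 in this order. Of the CSF1 axis and recruitment genes, 4, 7, 0 and 5 of 14 were lower and none higher, led by Ccr2 (-2.11 and -2.55 in 67NR, -0.99 in 66cl4 BPTF KD) and by Ccl8 (-2.68, -3.52 and -1.32 in the same comparisons).

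In arginine metabolism, Arg2, the mitochondrial arginase, was lower in NSG in 3 of 4 comparisons: by -2.62 in 67NR Control, -3.58 in 67NR labelled BPTF KD and -2.76 in 66cl4 BPTF KD. In the 67NR Control tumors, Arg1 was thus higher and Arg2 lower in NSG hosts. Counts for the 13 genes were 1 higher and 2 lower in each 67NR comparison, none in 66cl4 Control and 2 lower in 66cl4 BPTF KD. Of all genes, 7.58% passed in 67NR Control, 15.8% in 67NR labelled BPTF KD, 2.53% in 66cl4 Control and 11.1% in 66cl4 BPTF KD.

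The third comparison was the knockdown. None of the 10 genes passed in any of the 4 settings by limma, where 0, 0.186, 1.14 and 0% of all genes passed in 67NR BALB/c, 66cl4 BALB/c, 67NR NSG and 66cl4 NSG. At an unadjusted p under 0.05, 4, 5, 4 and 1 of the 10 genes were past it, and 7.75, 25.8, 14.1 and 7.68% of all genes. With the methods' t-test and adjustment over all genes none passed either. The differences pointed down for Cd163, F13a1, Mrc1 and Stab1 in all 4 settings, and the 10 genes had 5, 8, 8 and 7 differences below 0 where 50.6, 44.3, 45.7 and 46.8% of all genes did. The median over the 10 genes was -0.11, -0.47, -0.26 and -0.13 against -0.00, 0.03, 0.02 and 0.01 over all.

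**Figure D3:**
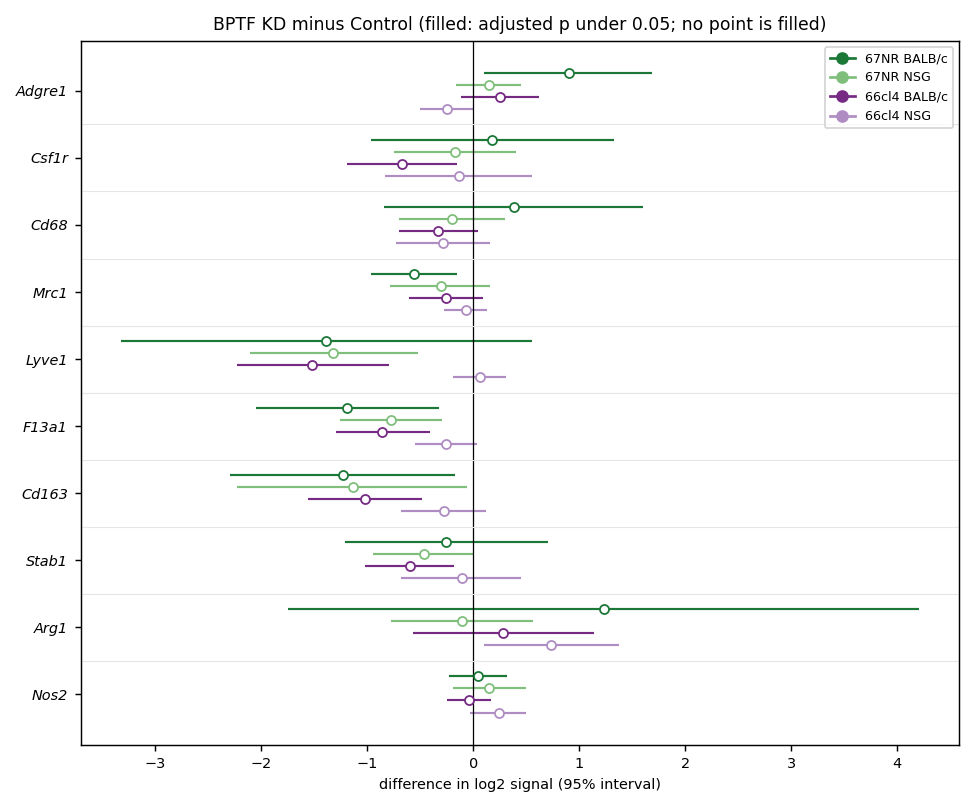
BPTF KD minus Control in log2 signal with 95% intervals (x axis) for the 10 genes (y axis) in 4 settings of line and host. Open points did not pass an adjusted p of 0.05. Lyve1, F13a1 and Cd163 lay between -0.78 and -1.52 in 67NR BALB/c, 67NR NSG and 66cl4 BALB/c and between -0.28 and 0.06 in 66cl4 NSG.

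In 66cl4 BALB/c tumors, where Bptf itself was lower in all 6 BPTF KD tumors, Lyve1, Cd163 and F13a1 lay furthest below Control, whereas Csf1r (-0.67), Stab1 (-0.60), Cd68 (-0.33) and Mrc1 were lower by less. Lyve1 was 8.92 to 10.66 (median 9.78) in BPTF KD and read 11.65, 10.78 and 11.29 in Control, all 6 below every Control (-1.52 ± 0.32, 95% interval -2.23 to -0.80, adjusted p = 0.066). F13a1 was 11.71 to 12.85 (median 12.29) against 13.19, 13.06 and 13.27, all 6 below (-0.86 ± 0.20, adjusted p = 0.0683). Cd163 was 9.51 to 10.66 (median 9.80) against 10.55, 11.18 and 11.24, 5 of 6 below (-1.02 ± 0.24, adjusted p = 0.0698). Mrc1 was 12.51 to 13.19 against 13.20 to 13.24, all 6 below by a small step (-0.26, adjusted p = 0.327). These 3 genes without overlap, Lyve1, F13a1 and Mrc1, stood against 8.67% of all genes without overlap, 4.90% of them lower.

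Which Control tumors entered decided these calls. Without 66cl4 BALB/c Control replicate 1, F13a1 (-0.85, adjusted p = 0.037), Lyve1 (-1.31, 0.0349), Cd163 (-1.24, 0.013), Csf1r (-0.99, 0.0125) and Stab1 (-0.83, 0.0129) all passed, with 2208 genes in all. Without Control replicate 2, the tumor with the lowest actin difference of its group (0.80) and the highest Csf1r (13.57) and Stab1 (10.55), no gene of the array passed, and Csf1r moved from -0.67 to -0.36 and Stab1 from -0.60 to -0.30, whereas Lyve1 (-1.75) and F13a1 (-0.91) kept their size. Adgre1 (0.25), Arg1 (0.28), Cd68 and Nos2 (-0.04) had intervals that held 0. The actin 3′ to 5′ difference was 0.80 to 1.31 in these Control and 1.27 to 1.56 in these BPTF KD tumors, so RNA integrity and label can hardly be told apart. With it as a covariate no gene of the array passed. In that limma fit Csf1r was at -0.35, Stab1 at -0.25, Lyve1 at -1.94 (adjusted p = 0.29), F13a1 at -1.07 and Cd163 at -0.96.

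In 67NR BALB/c tumors, Adgre1 lay opposite to the resident-type genes. Adgre1 was 10.77 to 12.48 (median 11.04) in the tumors labelled BPTF KD and read 10.58, 10.52 and 10.29 in Control, all 6 above (0.90 ± 0.35, 95% interval 0.10 to 1.69, adjusted p = 0.619). It was 1 gene of 10 without overlap, against 5.96% of all genes. F13a1 was 9.95 to 11.78 (median 10.30) against 11.81, 11.47 and 11.98, 5 of 6 below (-1.19 ± 0.39, adjusted p = 0.609). Mrc1 was 11.75 to 12.57 against 12.77, 12.50 and 12.68, 5 of 6 below (-0.56 ± 0.18), and Cd163 was 7.55 to 10.15 (median 8.75) against 9.91, 9.77 and 10.10, also 5 of 6 below (-1.23 ± 0.47). With the spread estimated over all 36 tumors in 1 fit, F13a1 (adjusted p = 0.0102) and Adgre1 (adjusted p = 0.0193) passed by limma, where 607 of all genes did. The 1 tumor not below in both was replicate 2, which also had the highest Bptf (10.68) and Lyve1 (8.49) of its group.

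Arg1 was split in the same 6 tumors: 10.77, 5.56, 11.46, 8.69, 5.60 and 7.18 in replicates 1 to 6, against 7.08, 7.42 and 6.43 in Control. So 3 tumors lay above every Control and 2 below every Control (1.23 ± 1.32, adjusted p = 0.825). Without replicate 3 the difference was 0.58 and without replicate 1 it was 0.72. Lyve1 was 8.03, 8.49, 5.04, 7.13, 4.88 and 5.43 against 8.41, 7.0 and 8.27, with 3 of 6 below (-1.39, 95% interval -3.33 to 0.55). T and NK cell genes had a median difference of 2.06 and a mean level of 7.31 to 10.13 against 6.68 to 7.36, and classical activation genes one of 0.88 (8.16 to 9.83 against 7.93 to 8.32), with no gene of either list past the threshold. Mast cell and eosinophil genes had a median difference of 1.95 and a mean level of 6.87 to 8.92 against 5.81 to 6.54, the mast cell genes Cpa3 (2.33), Mcpt4 (1.82), Tpsb2 (2.09), Cma1 (2.70) and Fcer1a (2.24) being higher in all 6 tumors without passing. The eosinophil genes of the list, Siglecf (0.11), Epx (-0.07) and Prg2 (0.02), lay near Control. Pan-leukocyte genes had a median difference of 0.90 and a mean level of 10.98 to 12.72 against 10.72 to 10.91. The part of these cell types was not tested. Cd68 (0.38) and Csf1r (0.18) became 0.71 and 0.45 without replicate 1 and 0.09 and 0.01 without replicate 3.

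In 67NR NSG tumors the resident-type genes again lay lower. There, Lyve1 was 7.87 to 9.22 (median 8.59) in BPTF KD and 10.20, 9.01 and 10.48 in Control, with 4 of 6 below (-1.32 ± 0.36, adjusted p = 0.118). F13a1 was 11.04 to 11.89 against 12.63, 11.76 and 12.57, 5 of 6 below (-0.78 ± 0.22, adjusted p = 0.127), and Cd163 6.79 to 8.18 against 9.09, 7.23 and 9.79, 2 of 6 below (-1.14 ± 0.49, adjusted p = 0.32). Control replicate 2 had the lowest value of its group in each of these genes. Without it F13a1 (-1.06, adjusted p = 0.019), Lyve1 (-1.76, 0.0222) and Cd163 (-1.88, 0.0253) passed. In that fit 359 genes of the array passed, against 141 with all tumors of the 2 groups. No gene of the 10 was without overlap, against 6.86% of all genes.

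In 66cl4 NSG tumors, Lyve1 was 11.22 to 11.70 in BPTF KD and read 11.46, 11.36 and 11.48 in Control, which overlap (0.06, 95% interval -0.19 to 0.31). The resident-type genes lay near Control there too, with F13a1 at -0.26 and Cd163 at -0.28. Adgre1 was 11.47 to 11.93 against 12.12, 11.95 and 11.99, lower in all 6 tumors (-0.25 ± 0.12, adjusted p = 0.668), 1 gene of 10 without overlap against 4.37% of all. Arg1 was 10.65 to 11.77 against 10.85, 10.97 and 9.80 with 5 of 6 above (0.73 ± 0.29, adjusted p = 0.589).

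Whether the knockdown difference depended on host or on line was tested directly, and none of the 10 genes passed in any of these 4 tests, in which 0, 0, 0 and 0.960% of all genes did. At an unadjusted p under 0.05 there were 0 genes of the 10 between hosts in 67NR, 4 between hosts in 66cl4, 0 between lines in BALB/c and 2 between lines in NSG. Over all genes, 6.89, 11.9, 9.64 and 10.1% were past it in the same order. Lyve1 differed between hosts in 66cl4 by 1.58 ± 0.37 (95% interval 0.79 to 2.36, adjusted p = 0.263) and between lines in NSG by 1.38 ± 0.41 (adjusted p = 0.134), which passed without 67NR NSG Control replicate 2 (1.82, adjusted p = 0.00777). Adgre1 differed between hosts by -0.75 in 67NR and -0.50 in 66cl4, neither past the threshold.

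Among the other lists, few genes passed with the knockdown. Of 35 macrophage and monocyte genes and 14 of the CSF1 axis none passed in any setting. In 66cl4 BALB/c the leading values were Aif1, the calcium-binding protein IBA1, at 1.31 (adjusted p = 0.0587), and Mertk, the efferocytosis receptor, at -1.02. Cxcl9 alone passed among classical genes in that setting (2.29, adjusted p = 0.0331) and was 2.36 in 67NR BALB/c without passing. In 67NR NSG the classical gene Irf1 was higher (0.68) and Ifng (-0.71) and Cd80 (-1.57) lower, and the alternative list held Il13ra1, a receptor chain for IL-13, at 0.71. Krt8 (1.68) and the fibroblast gene Dcn (1.81) were higher and Fbln1 (-0.96) and Pdpn (-1.65), from the lymphatic list, lower there. The other lymphatic genes, Prox1 (0.14), Flt4 (0.19) and Reln (-0.23), did not pass, so the Pdpn value alone does not describe lymphatic vessels. No arginine, pan-leukocyte, neutrophil, dendritic, T and NK, mast cell, blood endothelial, adipocyte or muscle marker passed in any of the 4 settings.

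**Figure D4:**
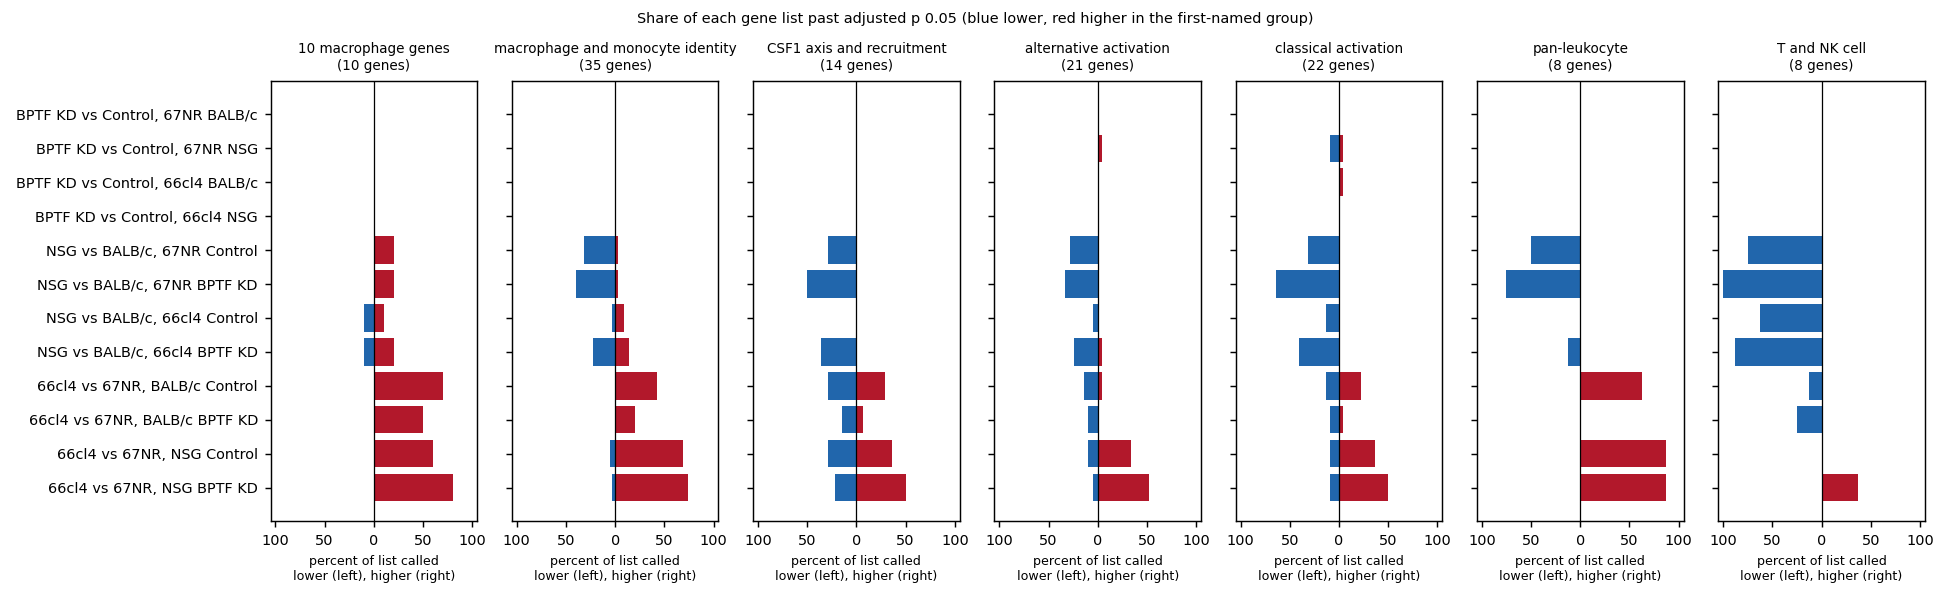
Percent of each gene list (panels) that passed an adjusted p of 0.05 in each of 12 comparisons (rows), red to the right for higher and blue to the left for lower in the group named first. In the line comparisons 15, 7, 24 and 26 of 35 other macrophage genes were higher in 66cl4, and none of them passed in the 4 knockdown rows.

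The 10 genes did not form 1 block from tumor to tumor. After the mean of its own group was taken from each tumor, Lyve1, F13a1, Cd163 and Mrc1 deviated together over the 36 tumors, with Pearson correlations of 0.72 for F13a1 and Cd163, 0.70 for F13a1 and Lyve1, 0.63 for F13a1 and Mrc1, 0.62 for Mrc1 and Cd163, 0.57 for Lyve1 and Cd163 and 0.49 for Mrc1 and Lyve1. Tumors of a group share line, host and label, so the values are descriptions. Csf1r went with Cd68 (0.70) and Stab1 (0.69), and Adgre1 with Cd68 (0.63). Adgre1 and F13a1 gave -0.09, Adgre1 and Cd163 -0.20, and Arg1 ran against Stab1 (-0.63), Cd163 (-0.53) and F13a1 (-0.44).

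**Figure D5:**
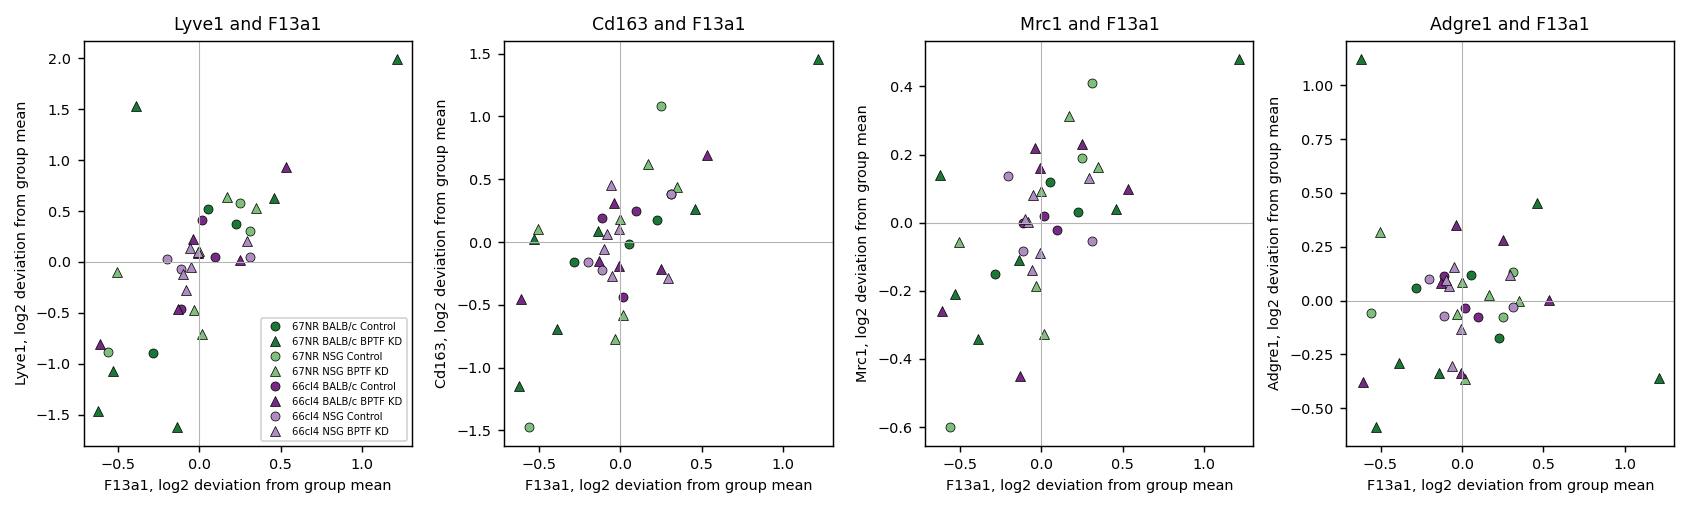
Deviation of Lyve1, Cd163, Mrc1 and Adgre1 (y axes) and of F13a1 (x axes) from the mean of the tumor's own group, in log2 units, for 36 tumors. Circles are Control and triangles BPTF KD. Points of Lyve1, Cd163 and Mrc1 rise from left to right (0.70, 0.72 and 0.63), and those of Adgre1 do not (-0.09).

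Among all 12394 genes, those with deviations most like a member were given by the 3 highest correlations. F13a1 had Jun (0.72), Cd163 (0.72) and Lyve1 (0.70), and Lyve1 had F13a1 (0.70), Rps7 (0.66) and Rpl41 (0.66). Csf1r had Man2b1 (0.98), Csf2ra (0.96) and Sidt2 (0.95), Cd68 had Fcgr3 (0.90), Ctsa (0.90) and Atp1b3 (0.88), and Adgre1 had Hsd17b11 (0.93), Tmem229b (0.91) and Cyp4v3 (0.88). Stab1 had Gata3 (0.91), Kank2 (0.89) and Prkci (0.88). Mrc1 (Man1a, 0.76, Stard8, 0.75, Gda, 0.69) and Cd163 (Cox6a1, 0.78, Zfp423, 0.75, Klhl5, 0.75) had looser partners. Arg1 had Col14a1 (0.87), Ift172 (0.86) and Ifi44l (0.85), and Nos2 had no gene above 0.65.

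Over plain values, which also hold the differences between groups, Lyve1 and F13a1 had each other as the nearest gene of the array (0.94), followed for F13a1 by Dhx36 (0.91) and Cbr2 (0.90) and for Lyve1 by Ldb1 and Ltc4s (0.86 each). Cd163 had Sema3a and Padi3 (0.93 each) and Mrc1 (0.91). Arg1 had Thbs3 (0.89), Apod (0.88) and Ccdc80 (0.88), while Adgre1 had Tm6sf1, Tlr6 and Tifa (0.94 each).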

How the data were processed

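RNA of 36 tumors (500 ng each) was hybridised to Affymetrix mouse arrays. The deposited values are log2 signals that the authors made with RMA according to the submitters' processing notes, its version not given in the sources used here, so all arrays share 1 scale. They were used as deposited. Of 22690 probe sets, 20393 carry 1 gene symbol, 691 several and 1606 none. Entrez numbers of 20364 were found in RefSeq. The brightest probe set stood for each of 12394 genes.

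Groups came from the labels. Each comparison was fitted to its 2 groups, and each test of a difference between effects to its 4 groups, with lmFit and eBayes of limma 3.58.1 (R 4.3.3, two-sided), with Benjamini-Hochberg adjustment over 12394 genes and a threshold of 0.05. SE and 95% intervals are limma's moderated ones. Scripts in Python 3.11.15 made summaries. The fits were tested on simulated data. The number of arrays limits the precision. Alternatives were quantile normalization, all 36 tumors in 1 fit, the t-test of the study's methods, a replicate block, all probe sets, leaving out the dimmest 25% of genes (9295 genes and all 10 members kept) and leaving out each tumor in turn. The actin 3′ to 5′ difference as a covariate for RNA integrity was added after seeing the data.

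The 10 genes and the gene lists were chosen with earlier results of these data known. From each list and comparison, up to 4 genes with the smallest p among those past the threshold, or up to 2 given as values where none passed, could be named, and genes most alike were the 3 highest Pearson correlations. Values of a named gene in the other comparisons are given beside them. Some genes of the lists, among them Ly6c1, Timd4, Ass1, Ddah1, Ccl21a, Mmrn1, Retnlg, Clec9a, Trac, Klrb1c, Plin1, Cfd, Ddx3y and Zfy1, were not analysed here.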

Additional observations from a re-analysis of the deposited data

Results flagged for a closer look

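In 66cl4 NSG BPTF KD tumors, replicate 5 stood far above the other 5 in F13a1 (13.32) and in Stab1 (10.39), by a gap test at the 95% level, which chance passes in about 1 in 20 groups. These are 2 of 40 sets of 6 values. The host effect differed between the cell lines, by limma's interaction test, for Arg1 (-5.09) and Adgre1 (0.57) in Control tumors and for Arg1 (-3.29), Cd163 (1.43) and Mrc1 (0.74) in BPTF KD tumors, each as the NSG minus BALB/c log2 difference in 66cl4 less that in 67NR.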

How the results depend on the processing

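Counts are of the 10 genes past the threshold. With the methods' t-test and adjustment over all genes, the count between lines in NSG Control went from 6 to 3, and the counts between hosts in 67NR Control, 66cl4 Control and 67NR labelled BPTF KD each from 2 to 0. At the methods' own unadjusted threshold it gave 5, 2, 2 and 5 in these comparisons and 2, 5, 2 and 0 for the knockdown in 67NR BALB/c, 66cl4 BALB/c, 67NR NSG and 66cl4 NSG. Over all genes, 40.4, 22.6, 22.5 and 29.2% were past it in these comparisons and 7.18, 21.8, 12.9 and 8.97% for the knockdown. With all 36 tumors in 1 fit, the knockdown in 67NR BALB/c went from 0 to 2, hosts in 66cl4 BPTF KD from 3 to 1, in 66cl4 Control from 2 to 0 and in 67NR labelled BPTF KD from 2 to 7, and the host difference between lines in Control from 2 to 0. Of all genes, 607, 579, 318, 3908 and 74 passed in that fit, in the same order. Quantile normalization left 1 for hosts in 66cl4 Control and 1 for the host difference between lines in Control, and all probe sets left 1 for that difference in BPTF KD. With the RNA integrity covariate, chosen after seeing the data, lines in NSG Control gave 0, hosts in 67NR Control 0, in 66cl4 Control 0 and in 67NR labelled BPTF KD 7. Of all genes, 25, 0, 56 and 3136 passed in these fits. Some differences stayed near their size, such as Arg1 between hosts (3.02 in 67NR and -1.90 in 66cl4 Control) and Adgre1 between lines in NSG Control (1.42). Others did not: between hosts in 67NR Control, Mrc1 went from -0.72 to -0.13 and Nos2 from -0.26 to 0.25. The causes were not tested.

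Replicate numbers pair nothing by the labels. Of 48 same-numbered pairs of tumors, 17 correlated above 0.1 in their deviations (-0.45 to 0.70) and 13 correlated best with their own number. A replicate block moved hosts in 67NR labelled BPTF KD from 2 to 4 and no other count by over 1.5 times.

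Leaving out each tumor in turn gave 7 to 8 between lines in BALB/c Control, 4 to 6 in BALB/c labelled BPTF KD, 4 to 6 in NSG Control and 7 to 8 in NSG BPTF KD. Between hosts it gave 1 to 3 in 67NR Control, 0 to 4 in 67NR labelled BPTF KD, 0 to 3 in 66cl4 Control and 3 to 5 in 66cl4 BPTF KD. For the knockdown it gave 0 to 0 in 67NR BALB/c and 66cl4 NSG, 0 to 5 in 66cl4 BALB/c and 0 to 3 in 67NR NSG. For the knockdown difference it gave 0 to 0 between hosts in either line, 0 to 0 between lines in BALB/c and 0 to 1 in NSG, and for the host difference between lines 1 to 2 in Control and 1 to 3 in BPTF KD. Over single genes and all settings, 3001 values kept direction and side of the threshold, 143 lost and 47 gained a call, 85 changed sign with neither value past the threshold, and none reversed. Probe sets near 5 to 6 log2 units, as for Nos2, lie close to the 3.02 to 4.76 of Y-linked genes, which limits what they can show.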
